A study of Homo sapiens with 6 samples.

Results

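The 35 genes described here encode enzymes and regulators of cholesterol and fatty acid synthesis, and their expression was followed after knockdown of the long noncoding RNA DLEU1 in oral squamous cell carcinoma (OSCC) cells. They were chosen by gene name, and every probe of the array that carried 1 of these names was taken. They fell into a cholesterol branch of 17 enzymes, 5 regulators, and a fatty acid branch of 13 enzymes. The 35 genes had 47 of the 50599 probes of the array, and 35 of its 34423 gene names. HSC-3, KON, and Ca9-22 are established OSCC cell lines. For each line, cells transiently transfected with siDLEU1-2, a small interfering RNA that targets DLEU1, were set against cells given a nontargeting control (siCtrl), with 1 one-color Agilent array for each. Total RNA was taken at 72 h, and 100 ng of it was labeled with Cy3. The cells otherwise carried no engineered change that the labels name. The 3 lines were the only replicates, so a change within 1 line had no error of its own.

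Cells build cholesterol from acetyl-CoA by way of mevalonate, farnesyl diphosphate, squalene, and lanosterol, and they build fatty acids from acetyl-CoA by way of malonyl-CoA. Both routes are switched on by the SREBP transcription factors, which the genes SREBF1 and SREBF2 encode. When membrane sterols are low, the protein SCAP carries the SREBPs from the endoplasmic reticulum to the Golgi, where they are cleaved, and when sterols are high the INSIG proteins hold SCAP back. Carcinoma cells draw on both routes for new membranes.

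The promoters of 4 members show how letters that the SREBPs and their partner NF-Y are known to bind are spread among them. HMGCS1 and INSIG1 are shown because they were called higher after knockdown, SREBF2 because it encodes the SREBP of the cholesterol route, and MVK because its level was lower in all 3 lines. Each sequence is the 250 bases before the transcription start, 5′ to 3′ on the strand of the gene, from RefSeq on GRCh38.p14. The promoters lie at chr5:43313413-43313662 on the minus strand for HMGCS1, and on the plus strand at chr7:155297628-155297877 for INSIG1, chr22:41832855-41833104 for SREBF2, and chr12:109573544-109573793 for MVK. Capitals mark matches on either strand to CCAAT (read as ATTGG on the other strand), to the E-box TCACGTGA, and to TCACNCCAC, a form of the sterol regulatory element. The matches shown do not overlap.
HMGCS1: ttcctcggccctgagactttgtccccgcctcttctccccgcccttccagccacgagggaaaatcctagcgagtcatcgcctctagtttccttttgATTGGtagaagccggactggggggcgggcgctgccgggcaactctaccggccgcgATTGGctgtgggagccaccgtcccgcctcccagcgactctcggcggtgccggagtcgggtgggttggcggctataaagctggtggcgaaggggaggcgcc
INSIG1: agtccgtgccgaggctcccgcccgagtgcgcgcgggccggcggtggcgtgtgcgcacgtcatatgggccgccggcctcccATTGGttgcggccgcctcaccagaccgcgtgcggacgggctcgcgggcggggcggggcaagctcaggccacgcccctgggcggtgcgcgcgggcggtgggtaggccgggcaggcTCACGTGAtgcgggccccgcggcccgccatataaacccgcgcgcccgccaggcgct
SREBF2: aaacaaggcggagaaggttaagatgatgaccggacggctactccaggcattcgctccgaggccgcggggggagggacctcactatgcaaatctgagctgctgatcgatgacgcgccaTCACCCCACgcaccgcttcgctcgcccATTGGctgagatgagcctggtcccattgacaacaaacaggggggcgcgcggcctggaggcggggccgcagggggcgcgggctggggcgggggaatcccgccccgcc
MVK: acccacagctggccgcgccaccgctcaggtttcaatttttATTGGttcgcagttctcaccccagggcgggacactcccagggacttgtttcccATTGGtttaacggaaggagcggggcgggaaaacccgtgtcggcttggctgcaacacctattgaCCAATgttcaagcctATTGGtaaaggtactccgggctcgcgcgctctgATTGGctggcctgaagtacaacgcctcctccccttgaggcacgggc
Over these 250 bases, CCAAT was found in 20 of the 31 members with a promoter in the table (64.5%), against 33.0% of all 27305 promoters. Those promoters were not limited to genes measured in these cells, whereas every member was measured, so the sets are unlike. By branch, CCAAT was found in 11 of 14 cholesterol enzymes, 3 of 5 regulators, and 6 of 12 fatty acid enzymes. In HMGCS1 it began 155 and 100 bases before the start, and in INSIG1 170 bases before it. MVK held 5 matches, so the sequence was present both in a gene that was higher and in a gene that was lower. TCACNCCAC was found in 1 member, SREBF2, 133 bases before the start, and in 0.875% of all promoters. TCACGTGA was found in 1 member, INSIG1, 56 bases before the start, and in 0.890% of all promoters. A match describes letters within these windows and is no evidence of binding. ACAT2, FDFT1, SQLE, and FASN matched no promoter in the table used, so theirs were not read.

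The knockdown itself was seen in each line. The DLEU1 signal fell 18.6-fold in HSC-3 (571 to 30.7), 13.1-fold in KON (1145 to 87.8), and 11.2-fold in Ca9-22 (741 to 66.0), as ratios of uncentered signals. The 75th percentile of the signal was 201 to 257 on the 6 arrays, 43.0% to 45.7% of the probes were well above background, and no spot was saturated. Of 10 markers of squamous epithelium, 9 were well above background on all arrays and TP63 on 5. Their summed signal, most of it from a few bright probes such as SFN, was 138358 to 287642 with siCtrl and 114367 to 184238 with siDLEU1-2, and the markers did not move one way. KRT5, KRT6A, SFN, TP63, and DSG3 were lower in each line, while CDH1 and EPCAM were higher in each. KRT14 and KRT17 were lower in HSC-3 and KON and higher in Ca9-22, and PERP was higher in KON only. TP63 ranged over 191 to 370 with siCtrl and 28.8 to 65.8 with siDLEU1-2. The log2 fold changes in HSC-3, KON, and Ca9-22 were 3.12, 2.93, and 2.70 for CDH1, and 1.77, 0.86, and 0.64 for EPCAM. Of 6 fibroblast markers, COL1A2, COL3A1, LUM, and PDGFRB were well above background on no array. The summed signal of the fibroblast list was 162 to 229 with siCtrl and 419 to 588 with siDLEU1-2, most of it from COL1A1. Of 5 immune markers only CD14 and CD68 were well above background on all arrays, and their list summed to 169 to 11177 with siCtrl and 140 to 13213 with siDLEU1-2. Each of the 4 endothelial markers was too dim on at least 1 array, and that list summed to 52.0 to 178 and 92.8 to 399. The part of these marker changes in the results was not tested. On bulk RNA, fewer cells with a transcript and less of it per cell cannot be told apart.

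All 35 genes had at least 1 probe well above background on 1 or both arrays of every line, and 43 of their 47 probes passed this filter. For a gene with several such probes the brightest on average was used, a choice made without regard to siRNA. All 6 arrays measured this probe well above background for 34 genes, and 4 arrays did for ACACB. The genes had 1 probe in 27 cases and several in 8.

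After knockdown, limma called 3 of the 35 genes higher at an adjusted p below 0.05 and called none lower. HMGCS1 and SQLE belong to the cholesterol branch, and INSIG1 is the feedback regulator of the route. No fatty acid gene was called. Over all 14671 gene names measured, 4.1% were called higher and 4.68% lower, against 8.57% and 0 of the members. The background given beside a later count is the same share over all gene names. At an unadjusted p below 0.05, 6 members were higher (background 14.8%) and 2 were lower (background 15.3%). No member was over 2-fold higher in all 3 lines (background 2.17%) or over 2-fold lower in all 3 (background 2.25%). Leaving out any 1 line ended calls. Without the HSC-3 pair or without the KON pair no member was called, and without the Ca9-22 pair INSIG1 alone was called. Without the cell line as a block no member was called. Over all 19956 probes kept, 1695 were called in the main fit and 321 without the Ca9-22 pair. No probe at all was called without the HSC-3 pair, the KON pair, or the block.

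HMGCS1 encodes the HMG-CoA synthase of the cytosol, which makes the substrate of the rate-limiting step of cholesterol synthesis. Its signal with siCtrl and then siDLEU1-2 was 1372 and 3183 (HSC-3), 1498 and 3445 (KON), and 795 and 1265 (Ca9-22). The signal was higher after knockdown within each line, and the range with siDLEU1-2 overlapped that with siCtrl because Ca9-22 was low on both arrays. The mean log2 fold change was 1.11 ± 0.34 (SD, n = 3 lines; adjusted p by limma = 0.0386). The probe lies at chr5:43290117-43290176 (hg19).

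SQLE encodes squalene epoxidase, which commits squalene to sterols. Its signal was 3288 and 9658 (HSC-3), 2879 and 8185 (KON), and 3105 and 5908 (Ca9-22). The 3 control signals lay close together and every knockdown signal was above all of them. The mean log2 fold change was 1.41 ± 0.38 (SD, n = 3 lines; adjusted p by limma = 0.0306), and the folds in HSC-3, KON, and Ca9-22 were 3.19, 2.99, and 1.97. On the centered log2 scale, SQLE, CYP51A1, and ELOVL6 were the members whose 3 knockdown levels all lay above the 3 control levels (background 5.88%), and ELOVL6 was not among them with quantile normalization, the 75th percentile over detected probes, or the mean of all its probes. No member had all of them below (background 5.36%).

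INSIG1 encodes a membrane protein that retains SCAP, and it is itself a target of the SREBPs. Its signal was 2063 and 6626 (HSC-3), 789 and 3300 (KON), and 1148 and 1987 (Ca9-22). It was the member with the highest mean change, 1.59 ± 0.67 on the log2 scale (SD, n = 3 lines; adjusted p by limma = 0.0452). The folds in HSC-3, KON, and Ca9-22 were 3.48, 4.40, and 1.79, and the Ca9-22 knockdown signal was below the HSC-3 control signal. The probe lies at chr7:155101843-155101902 (hg19).

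**Figure D1:**
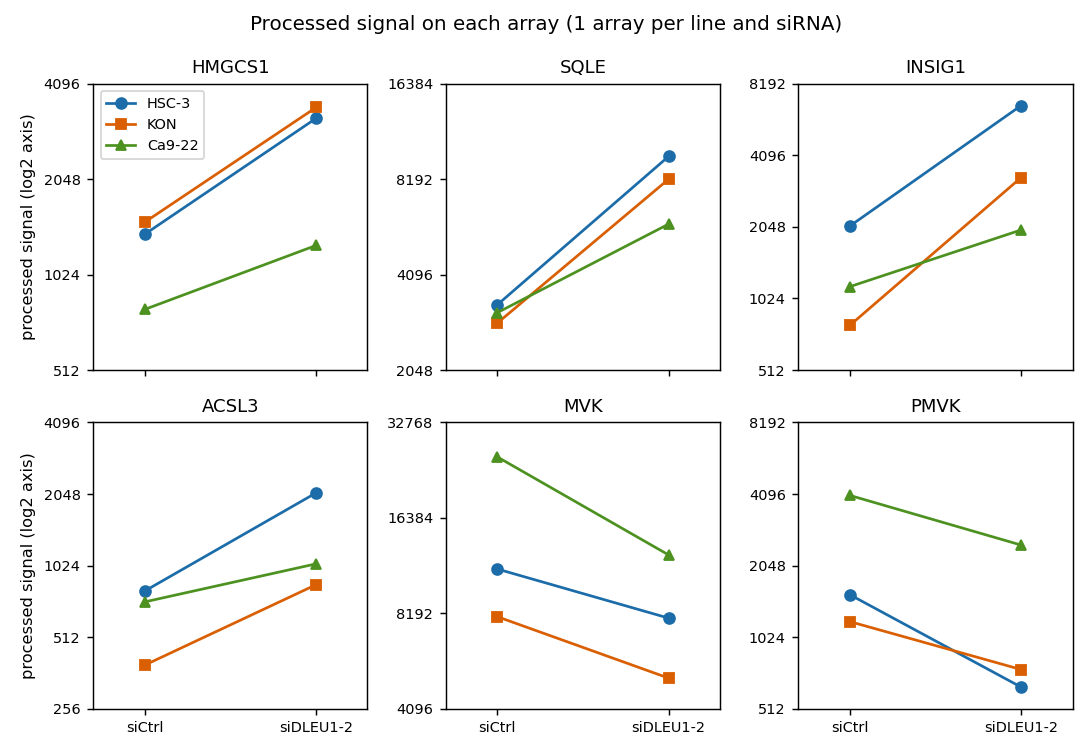
Processed signal (log2 axis) of 6 genes on the siCtrl and siDLEU1-2 arrays, with 1 line of points per cell line and 1 array per point. HMGCS1, SQLE, INSIG1, and ACSL3 were higher and MVK and PMVK lower with siDLEU1-2 in each line, and the change was smallest in Ca9-22 for the first 4.

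The other regulators had smaller mean changes than INSIG1 and did not pass the test. SREBF2 had signals of 2747 and 3859 (HSC-3), 1715 and 2388 (KON), and 1705 and 2019 (Ca9-22). It was higher in each line, but the ranges overlapped and the mean, 0.48 ± 0.17 on the log2 scale (SD, n = 3 lines), did not pass the test (adjusted p by limma = 0.110). SREBF1, whose SREBP favors fatty acid genes, had signals of 39698 and 48564 (HSC-3), 8200 and 7262 (KON), and 32657 and 36283 (Ca9-22). Its mean log2 fold change was 0.17 ± 0.26 (SD, n = 3 lines; adjusted p by limma = 0.539), and on this probe the difference between KON and the other lines was wider than any change with the siRNA. A second, dimmer SREBF1 probe had 331 and 358 (HSC-3), 275 and 352 (KON), and 326 and 347 (Ca9-22), and its mean change on the log2 scale was 0.27. On it KON differed little from the other lines, so the probes disagreed on the line difference. SCAP had signals of 1522 and 1329 (HSC-3), 1987 and 1620 (KON), and 1693 and 1715 (Ca9-22), and its mean change on the log2 scale was -0.08 ± 0.15 (SD, n = 3 lines; adjusted p by limma = 0.758). STARD4, which carries cholesterol between membranes, had log2 fold changes of 0.28, 0.74, and -0.80 in HSC-3, KON, and Ca9-22.

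The early steps of the cholesterol branch differed in direction. The kinases that follow the rate-limiting step, mevalonate kinase (MVK) and phosphomevalonate kinase (PMVK), were lower in each line while HMGCS1 before them was higher, and neither kinase passed the test. MVK had signals of 11307 and 7917 (HSC-3), 7999 and 5121 (KON), and 25523 and 12528 (Ca9-22). Its mean log2 fold change was -0.65 ± 0.30 (SD, n = 3 lines; adjusted p by limma = 0.0873). PMVK had signals of 1547 and 632 (HSC-3), 1192 and 749 (KON), and 4044 and 2500 (Ca9-22). The mean log2 fold change was -0.81 ± 0.32 (SD, n = 3 lines; adjusted p by limma = 0.0624). Both ranges overlapped between siRNAs, since Ca9-22 was the brightest line for both genes. For PMVK the adjusted p was 0.0497 with centering on the median, 0.0368 with normexp background correction, and 0.0463 with a filter of all 6 arrays. The per-array values of MVK, PMVK, and ACSL3 are given because their changes stood out once the values were seen. The mean of ACAT2, which joins acetyl-CoA units, was 0.51 on the log2 scale, and that of MVD, which completes the isoprene unit, was 0.37, with 1.17, 0.20, and -0.26 in HSC-3, KON, and Ca9-22.

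From the isoprene unit to squalene, the 3 enzymes had small positive means that did not pass the test. The mean log2 fold change of IDI1 (isomerase) was 0.29, that of FDPS (farnesyl diphosphate synthase) 0.44, and that of FDFT1 (squalene synthase) 0.45, and in Ca9-22 all 3 lay between -0.06 and 0.01. FDPS has pseudogenes of close sequence, and its probe may read them too.

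After SQLE, the route folds squalene into lanosterol and trims it to cholesterol. CYP51A1, the lanosterol demethylase, had the lowest p of these, and its change was 0.58 ± 0.31 on the log2 scale (SD, n = 3 lines; adjusted p by limma = 0.113). TM7SF2, a sterol reductase, had log2 fold changes of 0.34, 0.21, and 1.07 in HSC-3, KON, and Ca9-22, with the highest value in Ca9-22. EBP, a sterol isomerase, had 0.66, -0.69, and 0.00 in the same order. The means of LSS (lanosterol synthase) and of SC5DL, NSDHL, HSD17B7, and DHCR7, which act on later sterols, lay between -0.06 and 0.31. LSS had a second, dimmer probe with the other sign, 0.45 against -0.06. HSD17B7 has a near-identical pseudogene copy, so its 3 kept probes (0.10, 0.21, and 0.11) are uncertain as to source.

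In the fatty acid branch no gene passed the test. ACACA, the acetyl-CoA carboxylase that makes malonyl-CoA, had signals of 7373 and 6946 (HSC-3), 3595 and 2926 (KON), and 8903 and 5263 (Ca9-22). The signal was lower in each line, and on the centered log2 scale the changes in HSC-3, KON, and Ca9-22 were 0.03, -0.23, and -0.71. The HSC-3 value was -0.03 with the 75th percentile taken over probes detected on all arrays and -0.11 with quantile normalization, so its sign depends on the scaling. The mean was -0.30 ± 0.38 on the log2 scale (SD, n = 3 lines; adjusted p by limma = 0.362). A dimmer ACACA probe at another part of the gene gave 0.28, so the probes disagreed in sign. FASN, the fatty acid synthase, had signals of 12032 and 15831 (HSC-3), 2793 and 2166 (KON), and 22731 and 11869 (Ca9-22). FASN was thus higher in HSC-3 and lower in Ca9-22 (mean log2 fold change -0.22 ± 0.70, SD, n = 3 lines; adjusted p by limma = 0.660). SCD, the stearoyl-CoA desaturase, had signals of 1846 and 2012 (HSC-3), 1428 and 1492 (KON), and 1660 and 1725 (Ca9-22). Its mean log2 fold change was 0.16 ± 0.07 (SD, n = 3 lines; adjusted p by limma = 0.477), the narrowest spread over lines among the members. ACACB, the mitochondrial carboxylase, was dim in HSC-3 and KON, where it was well above background on the siCtrl arrays only, and its mean of -0.82 rests on values near background. Another ACACB probe, well above background on 1 array, did not pass the filter. It had 15.4 and 308 in Ca9-22, so the probes disagreed in sign there.

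ACSL3 had the highest mean change of the fatty acid branch. It encodes a long-chain acyl-CoA synthetase of the endoplasmic reticulum and lipid droplets. Its signal was 801 and 2071 (HSC-3), 391 and 852 (KON), and 721 and 1042 (Ca9-22). The change was positive in each line (mean log2 fold change 1.09 ± 0.46, SD, n = 3 lines) and lay just outside the threshold (adjusted p by limma = 0.0534), while with normexp background correction (0.0348), a filter of all 6 arrays (0.0379), or dim values raised to the detection floor (0.0464) it was inside. The other acyl-CoA synthetase, ACSL1, had a mean of 0.06. ACLY and ACSS2, which supply acetyl-CoA from citrate and acetate, had 0.97 and 1.17 in HSC-3 but -0.15 and -0.72 in Ca9-22. The elongases ELOVL1, ELOVL5, and ELOVL6 had means of -0.16, -0.02, and 0.51, and the desaturases FADS1 and FADS2 had 0.38 and 0.06. FADS1 had 1.04, 0.27, and -0.17 in HSC-3, KON, and Ca9-22, and its mean was 0.048 to 0.65 with a line left out. Second probes went the other way for ELOVL5 (0.33) and ELOVL6 (-0.27).

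**Figure D2:**
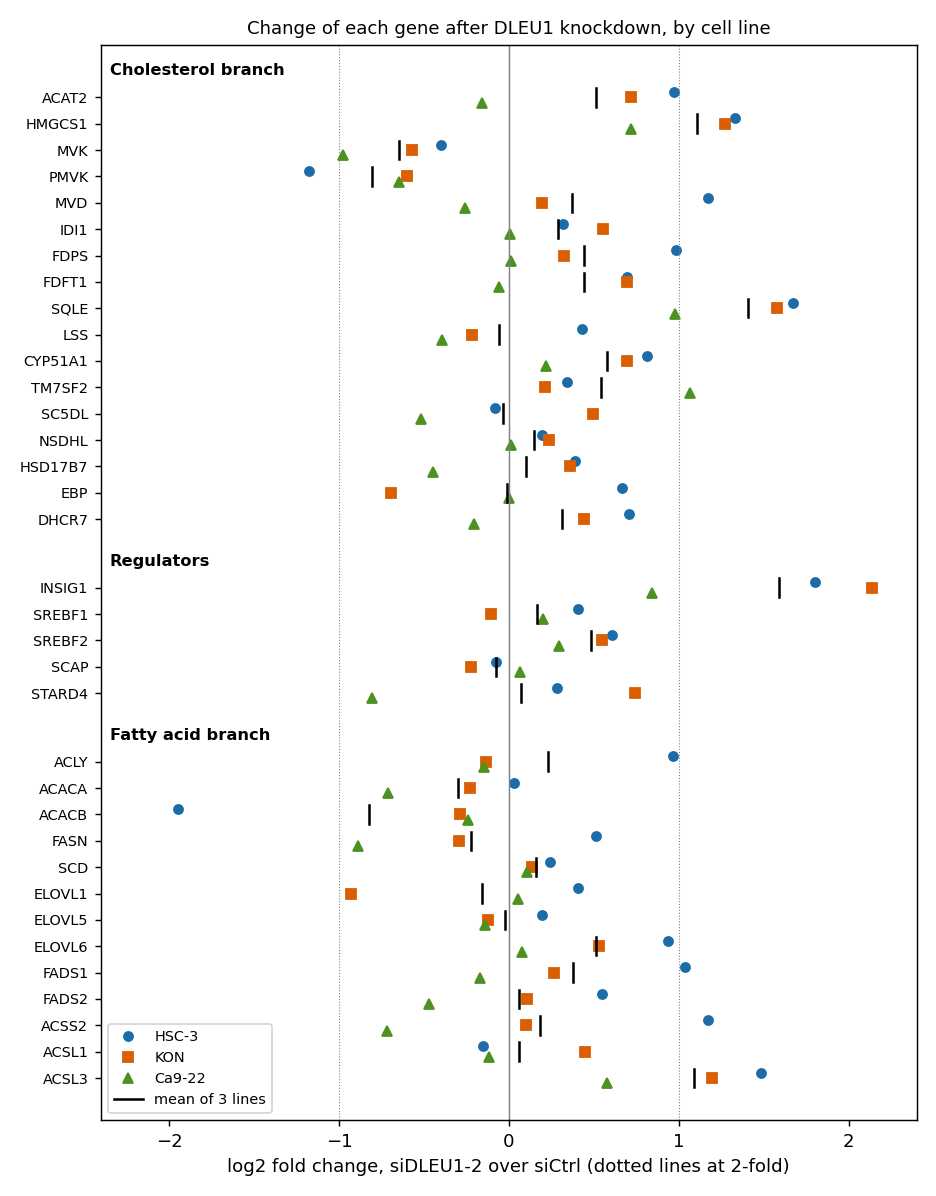
Log2 fold change (siDLEU1-2 over siCtrl) of each of the 35 genes, grouped by role. Points are the 3 cell lines, black bars the mean of the 3 lines, and dotted lines mark 2-fold. INSIG1, SQLE, HMGCS1, and ACSL3 had the highest means, and HSC-3 points lie to the right of Ca9-22 points for most genes.

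Counted over the lines, 12 of the 35 genes were higher in all 3 lines (background 27%) and 3 were lower in all 3 (background 27.4%). The 12 were 7 cholesterol enzymes (HMGCS1, IDI1, FDPS, SQLE, CYP51A1, TM7SF2, and NSDHL), the regulators INSIG1 and SREBF2, and the fatty acid genes SCD, ELOVL6, and ACSL3. In Ca9-22 the changes of IDI1, FDPS, and NSDHL were only 0.01 on the log2 scale, and with centering on the median all 3 were below 0 there, which left 4 cholesterol enzymes and 9 genes in all (21.7% of all gene names under that centering). With quantile normalization FDPS and NSDHL were below 0 there, which left 5 and 10 (24.2% of all gene names). With the mean of all probes ELOVL6 left the 12 and SREBF1 entered. The 3 lower in all lines were MVK, PMVK, and ACACB, and the last passed the filter in HSC-3 and KON through its siCtrl arrays only, so that with a filter of all 6 arrays 2 were left, MVK and PMVK. Other scalings added ACACA or SCAP to make 4. In Ca9-22 an ACACB probe that did not pass the filter was higher, from 15.4 to 308. In HSC-3, 7 genes were over 2-fold higher (HMGCS1, MVD, SQLE, INSIG1, FADS1, ACSS2, and ACSL3; background 7.91%) and PMVK was over 2-fold lower. There FADS1 was short of 2-fold with quantile normalization (log2 0.86), the 75th percentile over detected probes (0.97), or normexp (0.96), which left 6 higher. ACACB also counted as over 2-fold lower in HSC-3 by its measured signal, which made 2 (background 6.83%). Its knockdown signal there was not well above background, and with that value raised to the detection floor its log2 fold change was -0.63 in place of -1.95. In KON, 4 were over 2-fold higher (HMGCS1, SQLE, INSIG1, and ACSL3; background 7.61%) and 0 lower (background 7.63%), or 1, ELOVL1, with centering on the median. In Ca9-22 only TM7SF2 was over 2-fold higher (background 6.6%) and 0 were over 2-fold lower (background 6.54%). With normexp TM7SF2 was not over 2-fold there, and with quantile normalization or centering on the median MVK was over 2-fold lower there.

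The cholesterol branch had the higher median log2 fold change in each line. Its medians in HSC-3, KON, and Ca9-22 were 0.66, 0.36, and -0.06. Those of the fatty acid branch were 0.51, 0.10, and -0.15, so the branches differed by 0.15, 0.26, and 0.09 (mean 0.17 ± 0.09, SD, n = 3 lines). Over all gene names the medians were 0.00, 0.01, and -0.01. The median of the means over lines was 0.31 for the cholesterol branch and 0.06 for the fatty acid branch. The difference between branches was not tested, because with 3 lines the smallest two-sided p of an exact sign-flip test is 0.25. When all kept probes of each gene were averaged, the difference fell from 0.25 to 0.16, and without KON to 0.15.

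**Figure D3:**
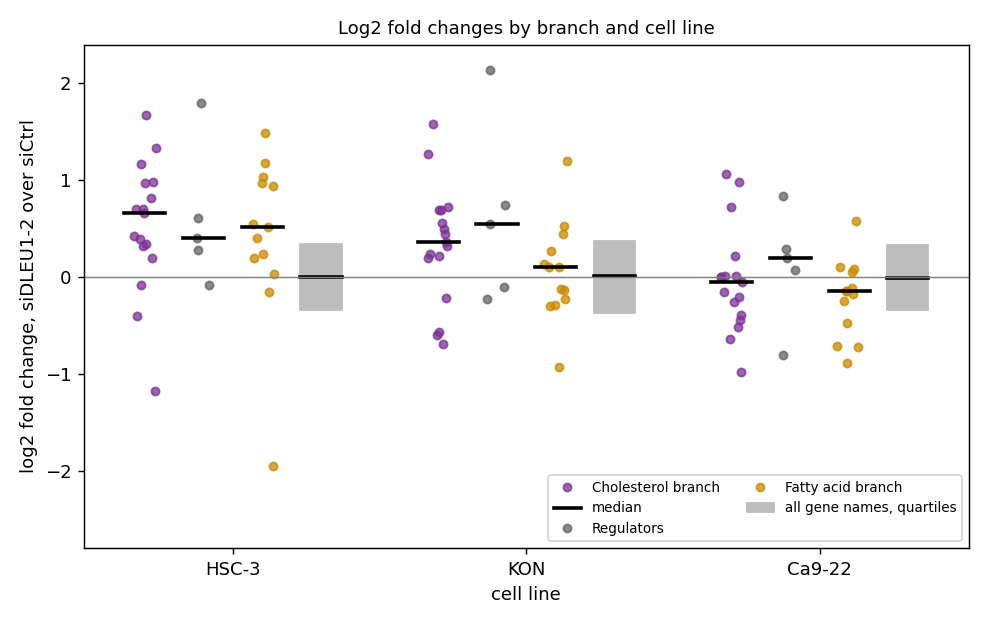
Log2 fold changes (siDLEU1-2 over siCtrl) of the members in each cell line, 1 point per gene, with the median of each group as a black bar. Gray boxes span the quartiles of all 14671 gene names. Both branches sit above the gray boxes' medians in HSC-3 and close to them in Ca9-22, with cholesterol medians of 0.66, 0.36, and -0.06.

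The change of the 35 genes also differed by cell line. The log2 fold change was above 0 for 29 genes in HSC-3 (background 50.1%), 23 in KON (background 50.9%), and 15 in Ca9-22 (background 49.1%). With centering on the median, which moved the median of all gene names from 0.01 to -0.11 in KON and from -0.01 to -0.08 in Ca9-22, the counts were 29, 21, and 10, against 47.8%, 41.6%, and 42.8% of all gene names. For 25 of the 35 genes it was highest in HSC-3 (background 34.8%), and for 27 it was lowest in Ca9-22 (background 32.5%). With quantile normalization these counts were 21 and 25, against 31.7% and 29.6% of all gene names. The highest value was in HSC-3 for 12 of 17 cholesterol enzymes, 2 of 5 regulators, and 11 of 13 fatty acid enzymes. The lowest was in Ca9-22 for 14, 3, and 10 of them. With 1 array per line and siRNA, an array effect shared by these genes and a response of the line cannot be told apart, and no test of the lines against each other was possible.

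The lines also differed in the levels of these genes apart from the knockdown. Both KON arrays lay below the other 4 for 14 genes (background 16.9%) and above them for 0 (background 17%). Both HSC-3 arrays lay above the other 4 for 15 genes (background 22.4%) and below them for 1, FADS2 (background 15.9%). Both Ca9-22 arrays were above for 6 (background 13.7%) and below for 3 (background 20.1%). The widest gap was that of EBP, named because it stood out once the values were seen, with 11852 and 17318 (HSC-3), 631 and 371 (KON), and 16040 and 15479 (Ca9-22). On the centered scale EBP spanned 25.9-fold between the siCtrl arrays, TM7SF2 18.0-fold, FASN 8.31-fold, and SREBF1 5.71-fold by its brighter probe, each lowest in KON, while IDI1 spanned 6.95-fold and was lowest in Ca9-22. By its kept probe, ACACB was highest in Ca9-22 with siCtrl signals of 27.9 (HSC-3), 32.4 (KON), and 399 (Ca9-22), and its HSC-3 and KON values lay near background. The second SREBF1 probe showed no such gap, with centered log2 levels of 0.60, 0.10, and 0.37 on the HSC-3, KON, and Ca9-22 siCtrl arrays. For 26 of the 35 genes the range between the 3 siCtrl levels was wider than any change with siDLEU1-2, as it was for 10304 of the 14671 gene names.

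**Figure D4:**
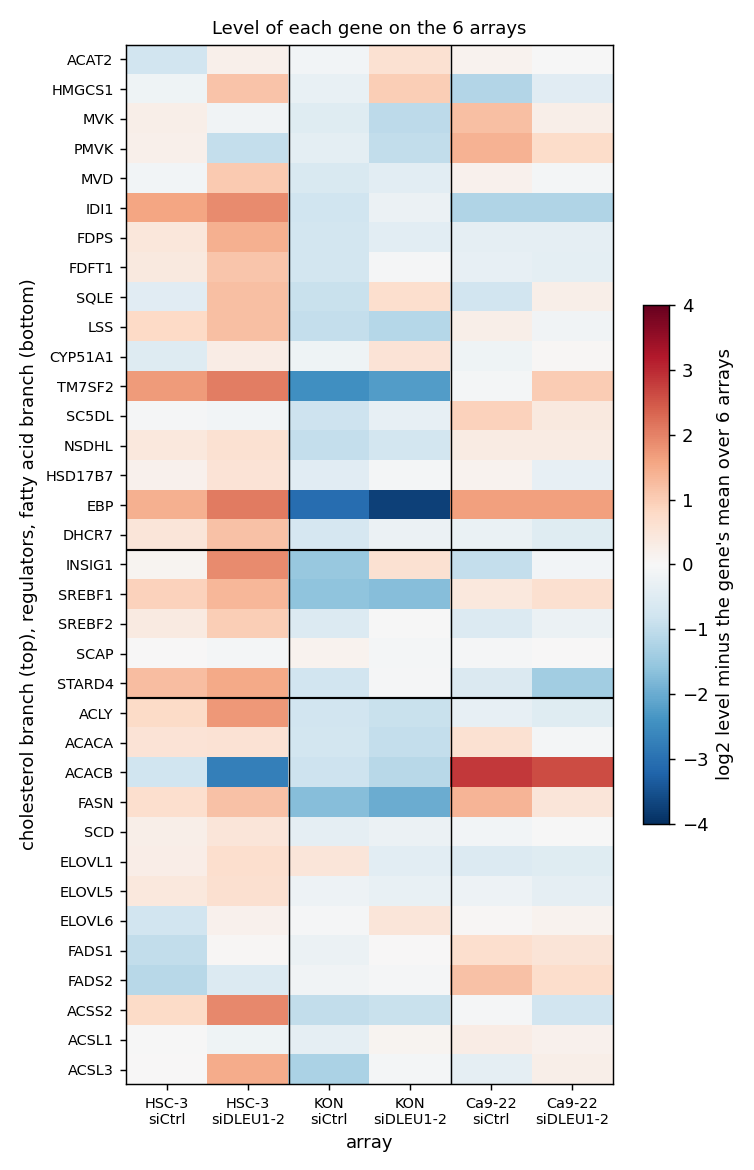
Centered log2 level of each of the 35 genes on the 6 arrays, minus the mean of the gene, with red above and blue below the mean. Horizontal lines part the cholesterol branch, the regulators, and the fatty acid branch. The KON columns are mostly blue, most of all for EBP and TM7SF2, and INSIG1, SQLE, and HMGCS1 turn toward red from siCtrl to siDLEU1-2 in each line.

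A further list of 54 genes of sterol synthesis, its regulation and transport, and lipid synthesis was read from the same fit. Of these names, 53 were on the array and 44 were measured, and limma called 3 higher (background 4.1%) and 3 lower (background 4.68%). Leaving out any 1 line, or the cell line as a block, left 0 of them called. Of all 19956 probes kept, 321 were called without Ca9-22, and 0 without HSC-3, KON, or the block. MSMO1, the sterol methyl oxidase that acts after CYP51A1, had signals of 1206 and 2726 (HSC-3), 662 and 1406 (KON), and 419 and 724 (Ca9-22). It was higher in each line by a mean of 1.10 ± 0.23 on the log2 scale (SD, n = 3 lines; adjusted p by limma = 0.0316). C12orf49 (now SPRING1), which is needed for SREBP activation, had 345 and 469 (HSC-3), 355 and 615 (KON), and 434 and 809 (Ca9-22), and was higher by 0.79 ± 0.21 (SD, n = 3 lines; adjusted p by limma = 0.0495). This call was lost with quantile normalization and with both other ways of centering (adjusted p by limma = 0.0541 to 0.0567). PTPLB (now HACD2), a dehydratase of fatty acid elongation, had 1731 and 3199 (HSC-3), 1782 and 2724 (KON), and 1683 and 3566 (Ca9-22), and was higher by 0.94 ± 0.23 (SD, n = 3 lines; adjusted p by limma = 0.0396). A second PTPLB probe gave 0.80 and did not pass the test (adjusted p by limma = 0.0814), and the mean of both lost the call (0.0507). The ranges of PTPLB and C12orf49 did not overlap between siRNAs, and those of MSMO1 did.

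The 3 genes called lower handle sterols and acetate, and with a filter of 3 of 6 arrays ABCA1 and SOAT1 lost their calls (adjusted p by limma = 0.0501 and 0.0592). ABCA1, the transporter that exports cholesterol, had signals of 923 and 275 (HSC-3), 608 and 193 (KON), and 3006 and 1547 (Ca9-22). The mean log2 fold change was -1.37 ± 0.40 (SD, n = 3 lines; adjusted p by limma = 0.0321). SOAT1, which esterifies cholesterol for storage, had 422 and 176 (HSC-3), 605 and 142 (KON), and 506 and 232 (Ca9-22). The mean log2 fold change was -1.41 ± 0.52 (SD, n = 3 lines; adjusted p by limma = 0.0400). SOAT1 was over 2-fold lower in every line, and its knockdown signals were all below its control signals. ACSS1, the mitochondrial acetyl-CoA synthetase, had 280 and 91.3 (HSC-3), 587 and 231 (KON), and 425 and 160 (Ca9-22), a change of -1.38 ± 0.11 on the log2 scale (SD, n = 3 lines; adjusted p by limma = 0.0247) that was also over 2-fold lower in every line. Its cytosolic counterpart ACSS2 had a mean of 0.18 with no common direction.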

How the data were processed

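RNA from 3 OSCC cell lines, each with siCtrl and siDLEU1-2, was measured on 6 SurePrint G3 Human GE arrays. The name siDLEU1-2 is from the study's account of this experiment, and the labels say only that the siRNA targeted DLEU1. The scanner files that the authors deposited come from Feature Extraction 10.7.3.1. Their processed signal is an intensity on a linear scale after background subtraction, not normalized between arrays. The deposited series table holds the same intensity within 0.497%.

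Processed signals were put on the log2 scale and the 75th percentile of each array was subtracted. Printed signals are uncentered. Control and outlier spots were left out, and spots of a probe were averaged. A probe was kept where at least 50% of its spots were well above background on at least 1 array of each line, which left 19956. limma 3.58.1 (R 4.3.3; lmFit and eBayes) was fitted with siRNA and cell line as terms and Benjamini-Hochberg adjustment over the probes kept, and tested on simulated data. The line served as the block, each line having given both arrays of its pair, and deviations from the siRNA means correlated within pairs at 0.83, 0.81, and 0.82. All arrays were on 1 slide, scanned on 1 day, and their number limits the precision.

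Values of every array are given for called members, for 6 others picked by role (SREBF1, SREBF2, SCAP, ACACA, FASN, and SCD), and for 4 picked once their values were seen (MVK, PMVK, ACSL3, and EBP), and others by range and count. The members and lists were chosen with earlier results of these data known. Alternatives changed the centering, normalization, background correction, filter, floor, table, test, block, lines, fold threshold, probe rule, and branch definition. Probe coordinates are those of the files (hg19). Promoters are from the RefSeq table of GRCh38.p14, in which 31 of 35 members matched (SC5DL as SC5D).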

Additional observations from a re-analysis of the deposited data

How the results depend on the processing

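The members called higher by limma were HMGCS1, SQLE, and INSIG1 with quantile normalization, both other ways of centering, normexp, the authors' series table, a filter of all 6 arrays, dim values raised to the floor, and the mean of all probes, with ACSL3 added by normexp, by the filter of all 6 arrays, and by the floor. The count fell from 3 to 1 (SQLE) with a filter of 3 of 6 arrays, where 844 of all 22328 probes were called. It fell to 0 with no filter on dim probes and with the methods' t-test, where 0 of 50544 and 0 of 19956 probes were called. It was 0 to 1 with a line left out. Centering on the median, normexp, and the filter of all 6 arrays each called 1 member lower, PMVK. Over all 19956 probes, 1695 were called in the main fit, 1699 with centering on the median, 2315 with normexp, and 1941 with the floor. With the filter of all 6 arrays, 2067 of 18094 probes were called. The replicate block is the cell line. Without the replicate block no member and no other pathway gene was called (0 higher and 0 lower), although 2 members had an unadjusted p below 0.05. Of all 19956 probes, 0 were called without the block and 1357 had such a p. C12orf49 lost its call with quantile normalization (adjusted p = 0.0541), centering on the median (0.0546), and the 75th percentile over detected probes (0.0567), which left 2 other pathway genes called higher, and PTPLB lost it with the mean of all probes (0.0507). With normexp and with the filter of all 6 arrays 4 were called higher, HSD17B12 being added, and with normexp 4 were called lower, PTPLA being added. The other pathway genes called were 1 higher and 1 lower (MSMO1 and ACSS1) with a filter of 3 of 6 arrays, 0 and 0 with no filter on dim probes or the methods' t-test, and 0 in both directions with a line left out. At a threshold of 1.5-fold, 3 members were higher in all lines and 1 was lower. At 2-fold with a line left out, 0 to 4 were higher in the lines that remained, with 4 only without Ca9-22. Shares over all gene names were not computed under these looser rules, so these counts have no background beside them.

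The difference between branch medians was 0.15 to 0.27 with a line left out and 0.16 with the mean of all probes, and otherwise 0.18 to 0.34. With a line left out, the cholesterol median was 0.13 to 0.43 (lowest without HSC-3) and the fatty acid median -0.14 to 0.19.

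Signs turned only for members that were not called and had small means. FADS2 and ACSL1 were at -0.0090 and -0.0093 with centering on the median. With the mean of all probes LSS was 0.19 and ELOVL5 0.15. With a line left out, MVD ranged from -0.031 to 0.69, HSD17B7 from -0.041 to 0.38, STARD4 from -0.26 to 0.51, ACLY from -0.14 to 0.42, FADS2 from -0.18 to 0.33, ACSS2 from -0.31 to 0.64, LSS from -0.30 to 0.11, EBP from -0.35 to 0.33, ELOVL1 from -0.44 to 0.23, ELOVL5 from -0.13 to 0.038, ACSL1 from -0.13 to 0.17, SC5DL from -0.30 to 0.21, and FASN from -0.59 to 0.11. The cause was not tested. Signal near background limits ACACB and SC5DL.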
